A study of Homo sapiens with 2 samples.

Results

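A total of 808 peaks of the transcription factor C/EBPβ lay 2 to 3 kb from the nearest annotated gene start in human HL-60 cells overexpressing the factor. They were chosen by position alone. For each of the 7029 peaks in the deposited list, the smallest absolute distance to any paired transcript start was taken, and the peaks where this exceeded 2000 bases were kept. They made up 11.5% of the listed peaks (95% interval 10.8 to 12.3). The list ends at 3000 bases, so these are its outermost peaks and not the distal binding of the factor as a whole.

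Chromatin immunoprecipitation with sequencing (ChIP-seq) recovers the DNA fragments that a chosen protein occupies. HL-60 is a human leukaemia line, labelled here as myeloblasts, and all cells of the series carried C/EBPβ overexpression. The series holds 1 library made with an antibody to C/EBPβ (Santa Cruz, sc-150x) and 1 input library made with no antibody, neither replicated. The values below come from the peak list of the antibody library, and no test between samples was possible. The promoter that drives the overexpression, and whether the cells are 1 clone or a pool, were not given in the sources used here. Cells without overexpression and the input library's coverage were not analysed here. The list gives positions only, so the identity of the cells could not be checked against expression of marker genes, and peak height, enrichment and read depth are unknown.

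C/EBPβ is a basic leucine zipper protein that binds DNA as a dimer, to itself or to another C/EBP or ATF family member. In myeloid cells C/EBP proteins work beside PU.1, RUNX1 and AP-1 to switch on granulocyte and monocyte genes, and C/EBPβ is known for its part in inflammatory gene induction and emergency granulocyte production. Such factors occupy promoters and also enhancers, which may stand close to a start or far from it. A microRNA gene is annotated from the start of its hairpin, whereas its primary transcript often begins well before that.

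A total of 39 microRNA genes had at least 1 of these peaks, and 21 of them had no listed peak of another kind. The 39 were 20.0% of the 195 listed microRNA genes, beside 13.3% of the listed protein-coding genes. The 21 were 10.8%, beside 6.62%. Of the 39, 4 are copies of MIR1244 placed at 1 start with 1 such peak. Such a peak was also shared by MIR548C and MIR548Z, MIR2861 and MIR3960, MIR141 and MIR200C, and MIR142 and MIR4736. Separate peaks were thus fewer than the 39 genes. The mature sequences of the best known of these are shown because they name the products of the loci, with the seed, bases 2 to 8, in capitals. They are RefSeq sequences from the table of build GRCh38.p14.
hsa-miR-223-3p: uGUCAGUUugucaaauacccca
hsa-miR-223-5p: cGUGUAUUugacaagcugaguu
hsa-miR-142-3p: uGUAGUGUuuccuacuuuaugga
hsa-miR-142-5p: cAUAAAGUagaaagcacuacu
hsa-miR-23a-3p: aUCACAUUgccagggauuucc
hsa-miR-139-5p: uCUACAGUgcacgugucuccagu
hsa-miR-200c-3p: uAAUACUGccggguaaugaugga
hsa-miR-141-3p: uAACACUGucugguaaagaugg
The 8 seeds were all different. MIR223, a microRNA of neutrophils whose gene is a known C/EBP target, had a peak of 442 bases at 65240700 to 65241142 on chromosome X, 2210 bases from the hairpin start, beside a peak of 146 bases at −732. MIR142, expressed across blood cells, had 6 peaks spread from −2998 to 2043 bases, among them peaks of 1599 and 1398 bases at −2998 and −1432. Of the 6, the peak at 2043 was more than 2000 bases from every listed start. It was 271 bases wide and also stood at −2661 from MIR4736. MIR23A had peaks at −482 and 2951 bases. MIR139 had a single peak, 374 bases wide and at −2707. MIR200C and MIR141, neighbours in a cluster known from epithelial cells, shared a peak of 198 bases on chromosome 12, at −2134 and −2532 bases from their starts, and had another, nearer peak of 434 bases in common. These microRNA genes were chosen after their values were seen.

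Positions are given on hg19, the build named in the submitters' notes, and as the file prints them. Distances run from a start to the peak middle and are positive towards higher genome positions, whatever the strand. The sign alone thus does not tell upstream from downstream. Strands are printed below only for genes whose promoter windows are shown, and were not used to turn the signs.

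The promoter windows of 5 genes are shown to set the letters near a start beside where the peaks of that gene lay. Each runs from 250 bases before to 50 after the RefSeq start, 5′ to 3′, on build GRCh38.p14, and the RefSeq start need not be the start used in the list. ANXA1 (annexin A1, an anti-inflammatory protein of phagocytes; chr9:73151615-73151914, plus strand) and PPP1R15A (GADD34, which restores translation after stress; chr19:48872171-48872470, plus strand) had a peak close to a start as well as a distant one. MNDA (a nuclear antigen of myeloid cells; chr1:158831101-158831400, plus strand), HSPA5 (the endoplasmic reticulum chaperone BiP; chr9:125241294-125241593, minus strand) and CXCR4 (the receptor for the chemokine CXCL12; chr2:136118100-136118399, minus strand) had distant peaks only. The MNDA peak, 403 bases wide, stood at 158803064 to 158803467 on hg19 chromosome 1, at 2098 bases. ANXA1, PPP1R15A and MNDA were picked because their windows held a C/EBP core match, so the matches in them say nothing of how frequent the core is at such genes. HSPA5 and CXCR4 were picked by hand from the list genes with distant peaks only, and windows of others were left out. The 5 windows are thus examples and no comparison of genes with and without a near peak. Capitals mark matches to any of 7 motifs on either strand, with the letters printed as they stand in the window.
ANXA1: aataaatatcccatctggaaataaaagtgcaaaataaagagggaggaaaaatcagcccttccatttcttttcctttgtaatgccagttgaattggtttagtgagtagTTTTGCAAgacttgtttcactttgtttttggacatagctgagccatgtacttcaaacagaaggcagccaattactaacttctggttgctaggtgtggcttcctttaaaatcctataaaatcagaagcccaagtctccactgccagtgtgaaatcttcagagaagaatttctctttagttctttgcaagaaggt
PPP1R15A: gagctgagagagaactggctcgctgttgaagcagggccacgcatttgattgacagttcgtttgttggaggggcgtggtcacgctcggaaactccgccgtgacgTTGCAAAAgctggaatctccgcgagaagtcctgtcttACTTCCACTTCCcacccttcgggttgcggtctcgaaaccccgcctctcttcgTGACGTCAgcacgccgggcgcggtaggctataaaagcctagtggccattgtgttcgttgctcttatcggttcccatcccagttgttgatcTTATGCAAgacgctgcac
MNDA: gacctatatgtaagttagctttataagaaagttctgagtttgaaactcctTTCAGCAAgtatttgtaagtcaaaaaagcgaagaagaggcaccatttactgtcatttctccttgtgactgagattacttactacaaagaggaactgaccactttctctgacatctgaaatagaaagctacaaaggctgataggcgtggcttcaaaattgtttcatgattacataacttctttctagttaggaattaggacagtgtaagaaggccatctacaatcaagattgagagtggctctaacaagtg
HSPA5: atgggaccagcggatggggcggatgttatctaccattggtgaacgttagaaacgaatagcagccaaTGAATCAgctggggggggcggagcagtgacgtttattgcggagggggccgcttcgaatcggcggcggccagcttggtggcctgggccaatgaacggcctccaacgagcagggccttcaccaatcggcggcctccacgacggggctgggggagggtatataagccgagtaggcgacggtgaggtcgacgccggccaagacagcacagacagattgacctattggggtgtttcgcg
CXCR4: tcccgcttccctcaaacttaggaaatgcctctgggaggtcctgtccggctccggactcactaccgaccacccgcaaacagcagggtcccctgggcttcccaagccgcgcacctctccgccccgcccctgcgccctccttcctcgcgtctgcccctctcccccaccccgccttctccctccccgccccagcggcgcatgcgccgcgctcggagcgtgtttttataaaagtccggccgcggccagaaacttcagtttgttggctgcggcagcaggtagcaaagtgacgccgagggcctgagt
With the start base counted as 0, the ANXA1 window held TTTTGCAA at −143 to −136 and the MNDA window TTCAGCAA at −200 to −193, both matches to TTGCNNAA, the C/EBP core with an open centre. The PPP1R15A window held 2 such matches, TTGCAAAA at −147 to −140 and TTATGCAA at 32 to 39. It also held the cyclic AMP response element TGACGTCA at −58 to −51 and 2 adjoining ETS cores. The HSPA5 window held TGAATCA, an AP-1 match, at −184 to −178. The CXCR4 window held none of the motifs searched. Of 15489 RefSeq promoter windows of protein-coding genes, 8.37% held TTGCNNAA and 5.75% held the AP-1 site TGANTCA. The palindrome TTGCGCAA, which TTGCNNAA includes, was in 0.181%, the C/EBP-ATF composite TGATGCAA in 0.678%, TGACGTCA in 2.63%, the ETS core GGAAGT in 25.0% and the RUNX site TGTGGTTT in 1.21%. A match is a stretch of letters and not a bound site. The windows cover 79.9% of the 19392 protein-coding genes, below the minimum of 80% set for a share over a gene set, so these shares describe the windows in the table and not all genes. Of the 340 protein-coding genes listed only through the distant peaks, 265 (77.9%) had a window, also below that minimum, so a share of motifs over that set is void and is not given. Sequences of the peaks themselves were not analysed here.

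**Figure D1:**
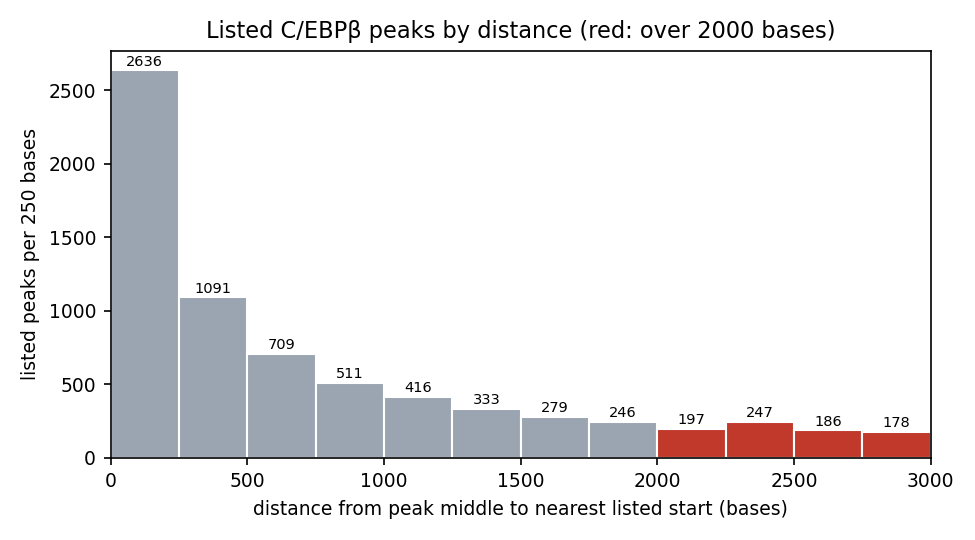
Number of listed peaks (vertical axis) by distance from the peak middle to the nearest listed start in steps of 250 bases (horizontal axis), for the 1 antibody library. Counts fall from 2636 in the first step to 246 in the step before 2000 bases, and the red bars hold 197, 247, 186 and 178 peaks.

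The peaks spread over the range between 2000 and 3000 bases without the steep fall seen closer to starts. Their distances ran from 2008 to 2997 bases with a median of 2462. In steps of 250 bases they numbered 197, 247, 186 and 178, against 2636 in the first 250 bases from a start and 246 between 1750 and 2000. In steps of 100 bases the counts ran from 61, between 2900 and 3000, to 100, between 2300 and 2400. The plot of peaks by distance shows this outer stretch as uneven, with the fewest peaks in its last step.

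The 5 peaks just over the limit were at RAB11FIP1 (2008 bases), CHGB (2009), CFAP276 and ELAPOR1 (−2010 from the nearer start), AP1S1 (−2010) and CHD6 (−2013). The 5 just under it were at ICAM4 (−1999), INTS1 (1995), AJM1 (−1995), KISS1R and R3HDM4 (−1994 from the nearer start) and ANP32A (−1993). At RAB11FIP1, with peaks at 422, 965, 1527 and 2008 bases, the limit at 2000 bases cut through a series of peaks. The series of ICAM4 (−1999, −525 and 334) and ANP32A (−1993, −1330 and 1321) lay wholly inside it. The other genes at this limit had no further listed peak. At the outer end stood ARID1A, a subunit of a chromatin remodelling complex, at −2997, AFMID at 2996, PPP1R15A at 2994, KIAA0232 at −2989 and BCL2, the inhibitor of apoptosis, at 2986.

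Of the 808 peaks, 423 (52.4%, 95% interval 48.8 to 55.8) lay on the positive genome side of their nearest start, against 50.0% (47.2 to 52.8) of the 1274 peaks between 1000 and 2000 bases. Beyond 2500 bases the positive side held 206 of 364 (56.6%, 95% interval 51.3 to 61.8). The sides are genome directions and carry no meaning for the gene until its strand is known.

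Peak width did not enter the choice of these peaks. The distant peaks had a median width of 223 bases (95% interval 214 to 232, exact binomial), against 230 (227 to 233) for the 6221 peaks within 2000 bases and 226 (221 to 232) for those between 1000 and 2000. The intervals overlap. The 10th and 90th percentiles were 150 and 390 bases, against 150 and 447 within 2000 bases. Peaks wider than 500 bases numbered 33 (4.08%, 95% interval 2.83 to 5.69), against 434 (6.98%, 6.36 to 7.64) within 2000 bases and 64 (5.02%, 3.89 to 6.37) between 1000 and 2000. The smallest width in the list, 146 bases, was held by 64 distant peaks (7.92%, 95% interval 6.15 to 10.0) and by 8.04% (7.37 to 8.74) of those within 2000 bases. The intervals for the share of wide peaks did not overlap between the distant peaks and all those within 2000 bases, and did overlap with those between 1000 and 2000. No test was made, and intervals here cover counting error over peaks only, which are not replicates.

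**Figure D2:**
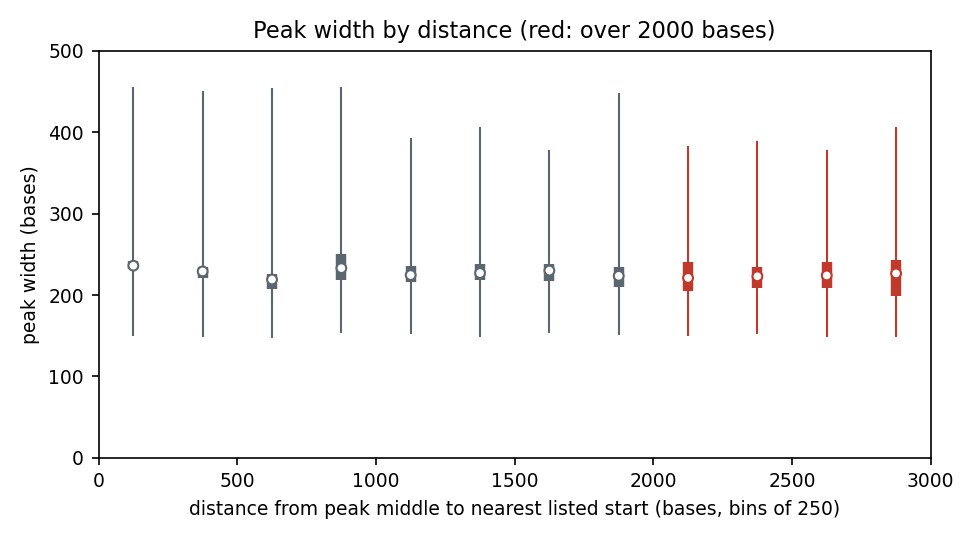
Peak width in bases (vertical axis) against distance to the nearest listed start in steps of 250 bases (horizontal axis). Circles are medians, thick bars their exact 95% binomial intervals and thin lines the 10th to 90th percentiles over peaks; the 4 red medians lie between 221 and 226.5 bases and the first grey one at 236.

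The widest of the distant peaks stood at MEFV, which encodes pyrin, the inflammasome protein of familial Mediterranean fever. It spanned 1272 bases at 3308926 to 3310198 on chromosome 16, with its middle 2935 bases from the start, and a peak of 209 bases stood at 1327. Both MEFV peaks lay on the same genome side of the start. MYEOV on chromosome 11 had a peak of 1090 bases at 2901 and no other.

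PEX11G, a gene of peroxisome division, had a peak of 1086 bases at 2578. MYC had a peak of 1039 bases at 2059 and another of 322 at 2801, the last of 6 from −1889 bases onward on chromosome 8. Its 4 nearer peaks were 522 to 1186 bases wide. MYC encodes a transcription factor of cell growth that is amplified in this cell line. Chromosome 8 held 31 of the 808 distant peaks. Without it the median width of the distant peaks was 223 bases, which says nothing of the widths at MYC. PPARG, a nuclear receptor that drives fat cell formation and acts in macrophages, had a peak of 854 bases at 2559 beside peaks at −186 and −990.

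Others of the 10 widest were at ADORA2A (852 bases wide at 2439 bases, an adenosine receptor that restrains inflammation), PPP1R27 (827 at 2826), NPLOC4 (800 at −2363, a cofactor in protein extraction for degradation) and ROCK1P1 (788 at −2822). ROCK1P1 is a partial copy of ROCK1, and reads of the pair may have been assigned to either. MYEOV and ADORA2A were without any other listed peak.

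Many of the distant peaks accompanied another peak of the same gene. For 435 of 808 (53.8%, 95% interval 50.3 to 57.3) a paired gene had a further listed peak, against 55.7% (52.9 to 58.4) of the peaks between 1000 and 2000 bases. A peak within 1000 bases of the same gene's start existed for 312 (38.6%, 35.2 to 42.1), against 44.0% (41.3 to 46.8). By steps of 250 bases this last share was 42.1%, 37.7%, 33.3% and 41.6%, which gave no order by distance. Where the near peak lay on the same chromosome, in 311 cases, the 2 middles were a median of 2448 bases apart. This spacing is largely set by the limits of 2000 bases for the distant peak and 1000 for the near one.

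Close neighbours were counted next. Another listed peak stood within 1000 bases, edge to edge, for 152 of the distant peaks (18.8%, 95% interval 16.2 to 21.7), against 34.2% (31.6 to 36.9) between 1000 and 2000 bases, with intervals that did not overlap. Peaks beyond 3000 bases from any start are missing from the list, so the outer side of these peaks is only partly seen. The rule also keeps the distant peaks away from starts, and 4947 of the 7029 listed peaks lay within 1000 bases of one. Close neighbours are thus limited by the choice of peaks. Within 5000 bases the share was 50.6% (47.1 to 54.1) for the distant peaks. It was 54.2% (51.5 to 57.0) between 1000 and 2000 bases, and these intervals overlapped. The peak names carry running numbers. Of the distant peaks, 68.8% (65.5 to 72.0) had the number before or after theirs listed on the same chromosome, against 73.2% (70.6 to 75.6) between 1000 and 2000 bases.

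The number of genes paired with a distant peak is limited by the rule, which allows no start within 2000 bases. A single gene was paired with 733 (90.7%, 95% interval 88.5 to 92.6), 2 genes with 69, 3 genes with 4 and 5 genes with 2. These last 2 were at copies of related genes, where reads may be shared. The peak at 232575358 on chromosome 2 was paired with PTMA and 4 copies of MIR1244, and that at 11101789 on chromosome 21 with 5 BAGE genes.

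Some peaks had noncoding genes as their only partners. No protein-coding gene was paired with 110 of the distant peaks (13.6%, 95% interval 11.3 to 16.2), against 11.0% (9.32 to 12.8) between 1000 and 2000 bases and 5.68% (5.05 to 6.36) within 1000. In the 4 steps of 250 bases beyond 2000 it was 13.2%, 8.91%, 15.6% and 18.5%, the last with an interval of 13.1 to 25.0. The rule that allows no start within 2000 bases also limits which genes a distant peak can be paired with. Of the distant peaks, 58.3% were paired with 1 transcript only, against 49.9% between 1000 and 2000 bases and 37.6% within 1000. Fewer partners leave fewer chances of a coding one, so the shares cannot be read apart from the choice of peaks. Beside the 39 microRNA genes, the paired genes included 81 long noncoding RNA genes, 13.5% of the 602 listed, and 23 transcribed pseudogenes, 21.9% of the 105 listed.

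The distant peaks were found on all 23 chromosomes of the list, at shares from 7.50% of peaks on chromosome X (9 of 120) to 16.0% on chromosome 22 (23 of 144). The interval of each of the 23 chromosomes held the overall 11.5%.

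**Figure D3:**
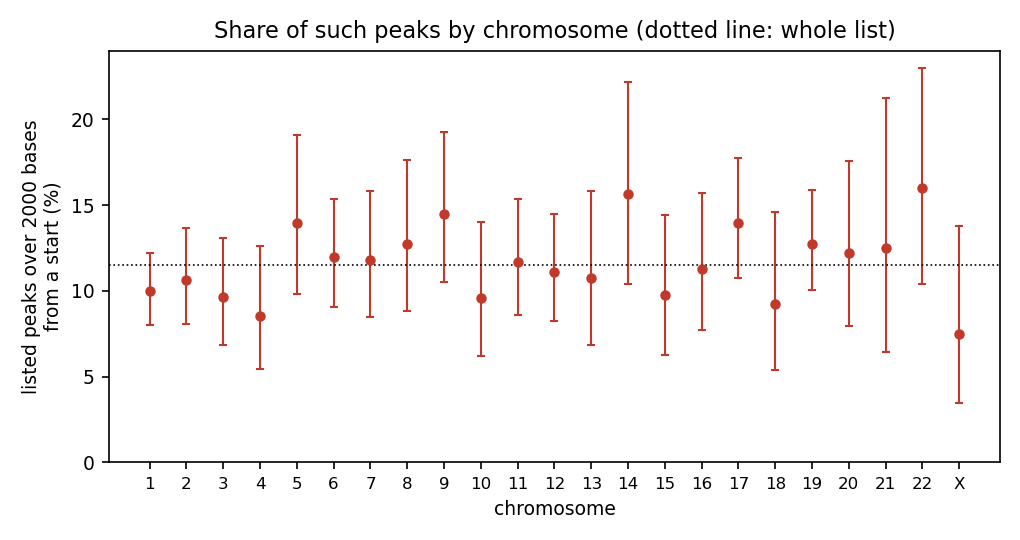
Share of listed peaks that lay over 2000 bases from the nearest start, in percent (vertical axis), for each chromosome (horizontal axis). Points are shares over peaks and bars exact 95% binomial intervals; the dotted line at 11.5% lies inside all 23 intervals.

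Genes reached by the distant peaks were then counted. Of 19392 protein-coding genes, 5133 (26.5%) had at least 1 listed peak, 684 (3.53%) had at least 1 distant peak, and 340 (1.75%) were listed through distant peaks only. The 684 were 13.3% of the listed genes (95% interval 12.4 to 14.3), and the 340 were 6.62% (5.96 to 7.34), which is the number of genes that would leave the list without these peaks. A single distant peak was held by 638 genes, 2 by 45 and 3 by 1.

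Of 395 genes in 14 lists, 35 (8.86%) had a distant peak and 14 (3.54%) had distant peaks only. In the same lists 184 genes (46.6%) had any listed peak. Among listed genes the shares were closer, since 19.0% of the listed genes of the lists had a distant peak, beside 13.3% of all listed protein-coding genes, and 7.61% had distant peaks only, beside 6.62%. No test was made of these shares.

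**Figure D4:**
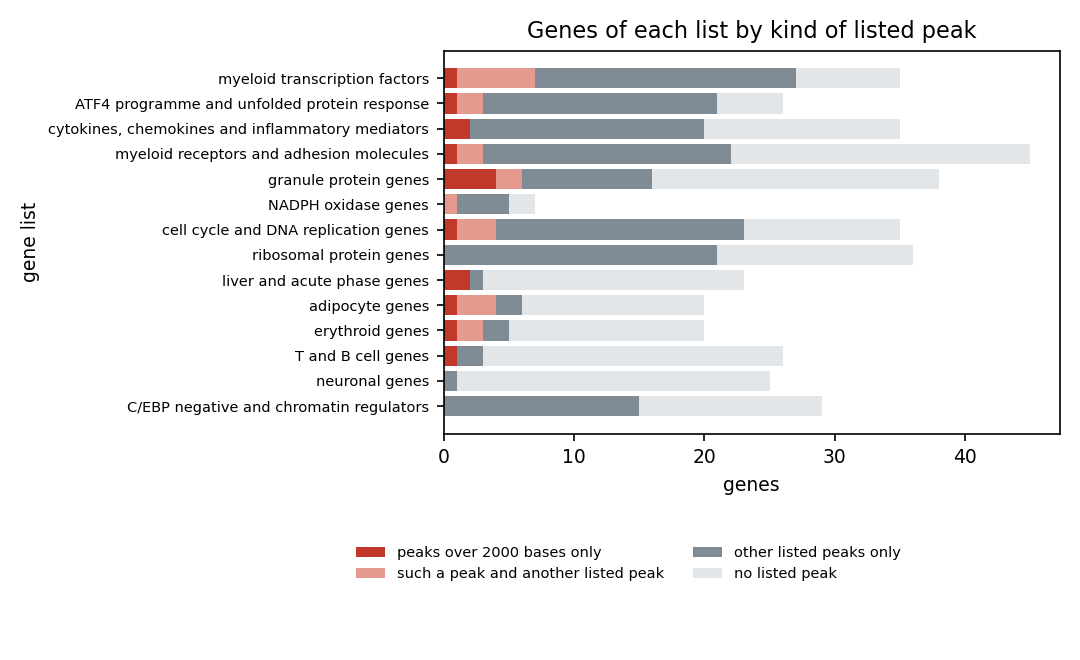
Number of genes (horizontal axis) in each gene list (vertical axis) with peaks over 2000 bases only (red), with such a peak and another (light red), with other listed peaks only (grey) and with no listed peak (pale). Granule protein genes had 4 in red, and the ribosomal list had 21 listed genes with none in either red. Of all listed protein-coding genes 13.3% had a peak over 2000 bases and 6.62% had such peaks only.

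Myeloid transcription factor genes had a distant peak for 7 of 35 (20.0%), beside 3.53% of all protein-coding genes. Any listed peak was present for 27 of the 35, and the 7 were 25.9% of these, beside 13.3% of all listed protein-coding genes. For KLF4, which promotes monocyte differentiation, it was the single listed peak, 180 bases wide at 2766 bases. KLF4 was the only 1 of the 27 with distant peaks only. That is 3.70%, below the 6.62% of all listed protein-coding genes. CEBPB itself had a peak of 494 bases at 48804029 to 48804523 on chromosome 20, at −2843, and its 3 other peaks at 385, 1456 and 1854 lay on the other side of the start. All cells overexpressed this gene, and whether reads of the overexpressed copy were assigned to its peaks was not tested. CEBPE, needed for the late steps of granulocyte maturation, had peaks at −2406 and 1339, both over 1000 bases away. RUNX1, a master regulator of blood formation, had 9 peaks, of which the distant one, 344 bases wide at 2275, was the outermost of 5 around the start at 36421595.

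The AP-1 genes JUNB and FOSL2 were alike in having a distant peak beside a near one. JUNB had peaks at −1090, −9 and 2523 bases, and FOSL2 at −2568, −145 and 2779. The FOSL2 peak at 2779 is not counted here, since it lies closer to another transcript's start. MYC, described above, was the seventh gene.

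Granule protein genes had a distant peak for 6 of 38 (15.8%), and for 4 of them (10.5%, beside 1.75% of all genes) nothing nearer was listed. Of the 38, 16 were listed at all, and the 6 were 37.5% of these, beside 13.3% of all listed protein-coding genes. The 4 were 25.0% of the 16, beside 6.62%. MPO, which encodes myeloperoxidase of the primary granules, had a single peak of 210 bases at 56355295 to 56355505 on chromosome 17, at −2896. PGLYRP1, a granule protein that binds bacterial cell walls, had 174 bases at 2749. MMP25, a membrane-bound metalloproteinase of neutrophils, had 216 bases at 2211, and HP, which encodes the haemoglobin-binding haptoglobin, 361 bases at −2584. CTSC, the protease that activates the granule serine proteases, had peaks at −2244 and 687, and STOM, a membrane protein of granules and red cells, at 2413 and −70.

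Of the NADPH oxidase genes, 1 of 7 had a distant peak, or 20.0% of the 5 listed, beside 13.3% of all listed protein-coding genes. It was RAC2, the small GTPase of the neutrophil oxidase, with peaks at −2721 and 15. Among myeloid receptors and adhesion molecules 3 of 45 (6.67%) had a distant peak, or 13.6% of the 22 listed, close to that 13.3%. CXCR4, which holds neutrophils and progenitors in the marrow, had 2 distant peaks and no other, 456 bases wide at −2871 and 164 at −2397. CD14, the lipopolysaccharide co-receptor, had peaks at −2252 and 1432. ITGB2, the shared β2 integrin subunit, had 5 peaks, of which the distant pair at −2484 and 2447 flanked the start at 46348788 and the near 3 lay around other starts.

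Inflammatory mediators had a distant peak for 2 of 35 (5.71%), or 10.0% of the 20 listed, beside 13.3% of all listed protein-coding genes. Both, the monocyte attractant CCL2 (202 bases wide at 2244) and the cytokine IL1A (291 bases at 2515), had no nearer peak. These 2 genes with distant peaks only were 10.0% of the 20 listed, beside 6.62% of all listed protein-coding genes. In the ATF4 and unfolded protein response list 3 of 26 (11.5%) had a distant peak, or 14.3% of the 21 listed, close to that 13.3%. HSPA5 had a single peak of 277 bases at 2089, while ATF6, a sensor of unfolded proteins, had peaks at −853, 57 and 2354 and PPP1R15A at 42 and 2994.

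Cell cycle and replication genes had a distant peak for 4 of 35 (11.4%), or 17.4% of the 23 listed, beside 13.3% of all listed protein-coding genes. CCND1, a G1 cyclin, had 2, at 2083 and 2876, beside 1 at 269, and CCND3 had peaks at −2303, −1513 and −107. PLK1, the mitotic kinase, had peaks at 199, 1309 and 2099, and MCM3, a subunit of the replicative helicase, a single 1 at 2208. Of 36 ribosomal protein genes 21 were listed and 0 had a distant peak. The list of C/EBP-related repressors and chromatin regulators had 15 of 29 listed and 0 with a distant peak, and neuronal genes had 1 of 25 listed and 0. These stand beside the 13.3% of all listed protein-coding genes with a distant peak. The lists are small and no test was made.

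**Figure D5:**
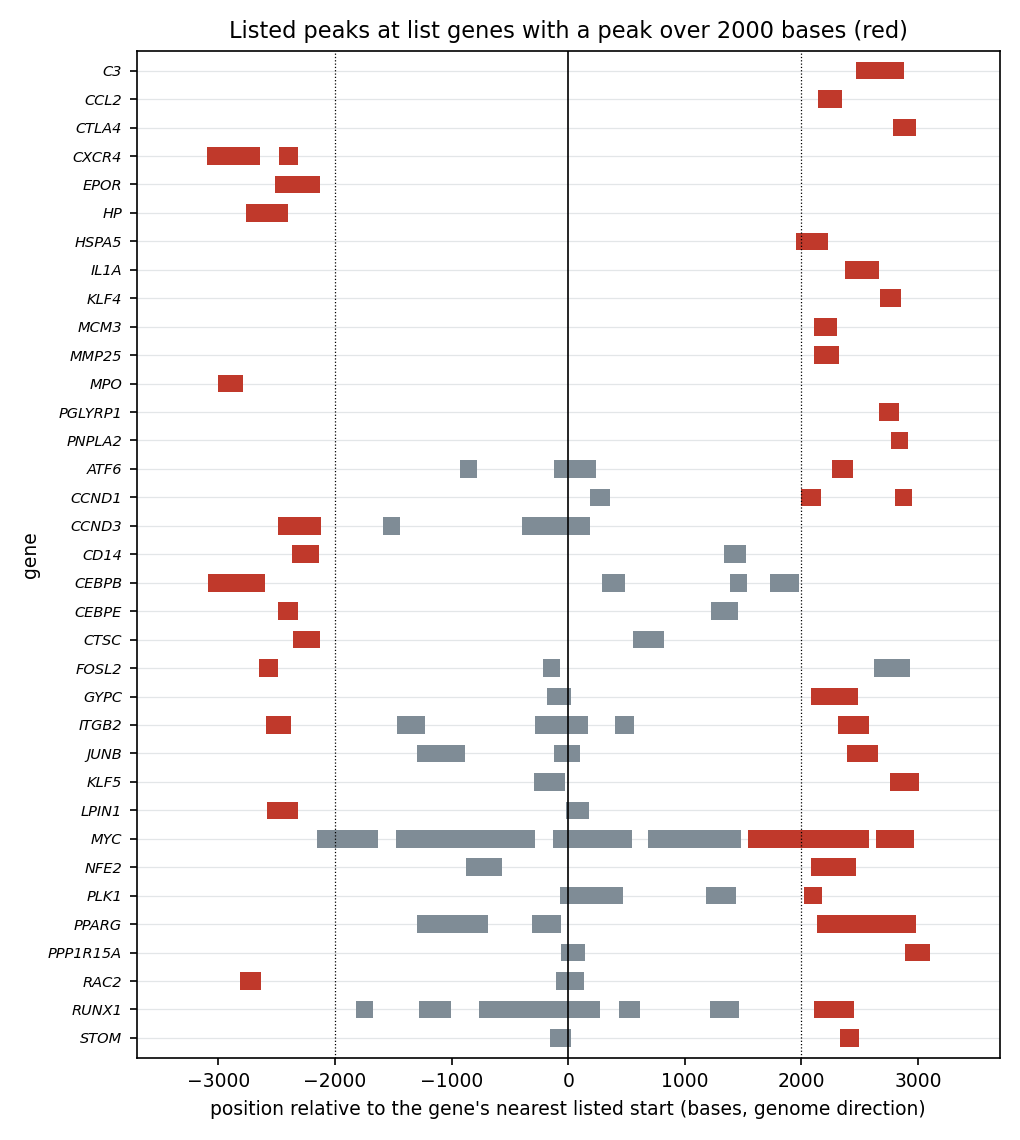
Listed peaks at the 35 list genes with a peak over 2000 bases, drawn to scale as bars of the peak's width at their position in bases from the gene's nearest listed start, in genome direction (horizontal axis; genes on the vertical axis). Red bars are the distant peaks; the upper 14 genes have red bars only, and the lower 21 also have grey bars.

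Lists of other tissues held a few such genes. Among adipocyte genes it was 4 of 20 (20.0%), or 66.7% of the 6 listed, beside 13.3% of all listed protein-coding genes. The lists of this kind hold few listed genes, and no test was made. PPARG is described above, KLF5 had peaks at −162 and 2884, LPIN1, an enzyme of lipid synthesis, at −2448 and 80, and PNPLA2, the triglyceride lipase, at 2839 alone. Liver and acute phase genes had 3 of 23 listed, and 2 of these were listed through distant peaks only. That is 66.7%, beside 6.62% of all listed protein-coding genes. They were HP, which is also counted among the granule genes, and C3, the central complement component, with 413 bases at 2676. The erythroid list had 3 of 20 (15.0%), or 60.0% of the 5 listed. These were EPOR at −2322 alone, GYPC at −78 and 2283, and NFE2 at 2278 and −724. Of 26 T and B cell genes, CTLA4, at 2886 alone, was the only 1 with a distant peak. It was 33.3% of the 3 listed, beside the same 13.3%.

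Several genes held more than 1 distant peak. ARHGDIA had 3, at −2847, −2532 and −2151, beside peaks at −1482 and −175, the last measured from another start. ALOX5AP, needed for leukotriene synthesis, had 5 peaks at 2 starts, with a distant peak at each, 191 bases wide at 2786 and 632 at 2430. ANXA1 had peaks at −2322, −4, 1334 and 2926. ATF1, a CREB family factor, had distant peaks at −2717 and −2386 beside −128 and 351, and BHLHE40, a clock-related repressor, at −2115 and 2625 with 3 between. The BHLHE40 peaks were also paired with its antisense gene BHLHE40-AS1.

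ASB2, a ubiquitin ligase subunit induced by retinoic acid in leukaemia cells, had distant peaks at 2066 and 2383 among 5. ADAP1 had 2062 and 2657 among 4, and C2, a complement component, 2197 and 2681 among 4. AFMID had 2296 and 2996 and no other.

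Of the 46 protein-coding genes with at least 2 distant peaks, 18 had no other listed peak. Among all 684 protein-coding genes with a distant peak, 340 (49.7%) had no other kind, a larger share. Beside CXCR4 and AFMID, and chosen after their values were seen, these included the leukocyte coronin gene CORO1A at 2456 and 2795 bases, the kinase gene IKBKE at −2072 and 2485, SERPINB2, an inhibitor of plasminogen activators made by monocytes, at 2121 and 2721, and CYTH4 at 2445 and 2756. DBF4, which starts DNA replication, and SLC25A40 shared the same pair of peaks, at −2026 and −2640 from DBF4, and count as separate genes.

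Among genes with the most peaks of any kind, the distant ones were a minor part. FOXP1, a transcription factor gene, had 9 peaks, of which the pair at −2705 and 2040 flanked the start at 71114074, and that start had no nearer peak. LMNA, the lamin A and C gene, had 8, with distant ones at −2347 and 2776 on either side of the start at 156095907. PKM, the pyruvate kinase gene, had 7, with 1 distant at −2581. RUNX1 is described above.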

How the data were processed

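The authors' deposited list pairs each peak with RefSeq transcripts and gives the peak's positions and a distance, in bases, with a deposited score. Per the submitters' processing notes, BWA 0.7.10, SAMtools, MACS2 2.1.1 and hg19 were used; roles, settings, the peak threshold and use of the input were not given in the sources used here. A fixed function of distance returns the deposited score to within 4.99989e-13, and it was not used. Subtracting distance from peak middle gave 1 start (within 2 bases) for 3742 of 3744 transcripts with several peaks. Positions are printed as deposited, and their counting base was not given in the sources used here. In all the list held 17637 pairs and 12532 transcripts.

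Genes were named from a RefSeq table of GRCh38, without its coordinates: 12331 transcripts matched by accession, 129 by symbol, 58 by older symbol and 14 kept the deposited symbol. The background was 19392 protein-coding genes with a curated transcript on chromosomes 1 to 22 and X. Shares carry exact (Clopper-Pearson) 95% intervals and medians exact order-statistic intervals, both for counting error over peaks of 1 library, which are not replicates. Python 3.11.15, pandas 2.3.3, numpy 2.4.6 and scipy 1.17.1 were used, and placement, motif search and intervals were tested on simulated data.

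Peaks and gene lists were chosen with earlier results of these data known. Named genes are those of the 10 widest peaks, list genes with a distant peak, up to 10 genes with several, the 5 peaks nearest each limit and the 5 genes with most peaks, with ties between peaks broken by peak name and between genes with several by gene name; others were chosen after their values were seen. A gene named by this rule is not reported here. The alternatives were other distance limits, coding transcripts only, distance from the peak edge, and no chromosome 8.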

Additional observations from a re-analysis of the deposited data

How the results depend on the processing

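Of 49 values recomputed under 5 alternatives, 39 stayed within the interval of the reported value or, for counts, within 1.5 times of it. Measuring from the peak edge, which left 705 peaks, and leaving out chromosome 8, which left 777, moved none. With a limit of 1500 bases (1333 peaks), 592 genes were listed only through the peaks beyond it in place of 340, 21.9% of peaks had another within 1000 bases in place of 18.8%, and 1 ribosomal protein gene was reached in place of 0. With a limit of 2500 bases (364 peaks), these were 139 genes and 14.8%, 18 list genes had such a peak in place of 35, 94.5% of peaks were paired with 1 gene, 17.0% with no protein-coding gene, and 56.6% lay on the positive side. The limit itself sets how many peaks enter these counts. With curated protein-coding transcripts only (736 peaks), 95.7% were paired with 1 gene, and the share with no protein-coding gene could not be formed. The counts of list genes and of ribosomal genes were added to the alternatives after the data were seen. No paired analysis was possible because each group has 1 library. Depth and enrichment per peak are unknown, so weak and strong peaks could not be told apart.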
